A study of Mus musculus with 6 samples.

Results

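Claudins, cadherins, connexins and the other tight junction genes were examined in epithelial cells of the large intestine with and without deletion of Hdac3. Hdac3 is a histone deacetylase of corepressor complexes. The set was taken by gene symbol from the array's annotation: the numbered claudins (Cldn), classical and related cadherins (Cdh), connexins (Gja to Gje) and zonula occludens genes (Tjp), with Ocln, F11r, Jam2, Jam3, Marveld2, Marveld3 and Cgn. It held 76 of 19533 measured genes, namely 28 claudins, 23 cadherins, 16 connexins and 9 other tight junction genes. A further 12 genes of these families were not analysed here.

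Cells with the deletion came from 3 germ-free mice that lack Hdac3 in intestinal epithelial cells (HDAC3ΔIEC). The control cells came from 3 germ-free mice with floxed Hdac3 alleles (HDAC3FF). All 6 mice were on the C57BL/6 strain, and their large intestine had been the source of live EpCAM-positive cells. Total RNA of each mouse was hybridised to its own array, and the series asks how the transcripts of these cells differ with epithelial Hdac3 where there is no microbiota. The promoter that drove the deletion, and the age and sex of the mice, were stated by none of the sources used here.

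Neighbouring epithelial cells are held together by a belt of tight junctions, a belt of adherens junctions below it, and spots called desmosomes, and they exchange small molecules through gap junctions. Claudins are the membrane proteins that set what passes between the cells: some, such as claudin-2 and claudin-15, form pores for small cations and water, and others, such as claudin-4 and claudin-8, tighten the barrier. In the gut, pore-forming claudins let sodium return to the lumen, where absorption of nutrients needs it, and sealing claudins of the colon hold back the salt that has been taken up. Cadherins bind the same kind of protein on the next cell, and connexins assemble the gap junction channels.

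Values are log2 signals as deposited, so a difference of 1 is a doubling or a halving. Probes differ in brightness. A gene's signal set against the median of all genes, or summed with others, therefore does not measure how strongly it is expressed. Hdac3 read 6.58, 6.22 and 6.00 on the HDAC3ΔIEC arrays, against 6.96, 7.36 and 7.04 on the HDAC3FF arrays, a log2 fold change of -0.86 ± 0.17 (SE, n = 3 each) with a limma adjusted p = 0.0937. The deposited table does not say whether its probes lie in the deleted part of the gene. Epcam, the surface protein used for the isolation, differed by -0.06 ± 0.10, and of 10 epithelial markers all read above the median of all genes. Among the measured markers of other cells, 9 of 10 endothelial, 8 of 10 fibroblast and muscle, 7 of 8 T and NK cell, 4 of 4 B and plasma cell, 7 of 9 myeloid and 3 of 5 neuron and glia genes read at or below that median. The B and plasma cell list named 5 genes and the neuron and glia list 7, not all of them measured. HDAC3FF array 3 stood apart within its group: 10.3% of all genes differed there by over 0.5 from the mean of the other 2 arrays, against 1.98% to 5.61% on the 5 other arrays, and values that it moved most are given without it too.

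Of the 76 genes, 25 had a mean signal over the 6 arrays above the median of all genes (5.34), and 51 lay at or below it. The brighter 25 comprised 10 claudins, 7 other tight junction genes, 3 cadherins and 5 connexins. Within the tight junction this set held Cldn2, Cldn3, Cldn4, Cldn7, Cldn8, Cldn12, Cldn14, Cldn15, Cldn20, Cldn23, Tjp1, Tjp3, Ocln, F11r, Marveld2, Marveld3 and Cgn. The cadherins were Cdh1, Cdh17 and Cdh24, and the connexins Gjb1, Gjb2, Gjb5, Gja3 and Gjd3. The deposited table does not mark signals under background, so how many of the 51 dimmer genes were detected is not known. Their log2 fold changes ran from -0.16 to 0.22, and 30 of them lay below the 25th percentile of all genes.

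**Figure D1:**
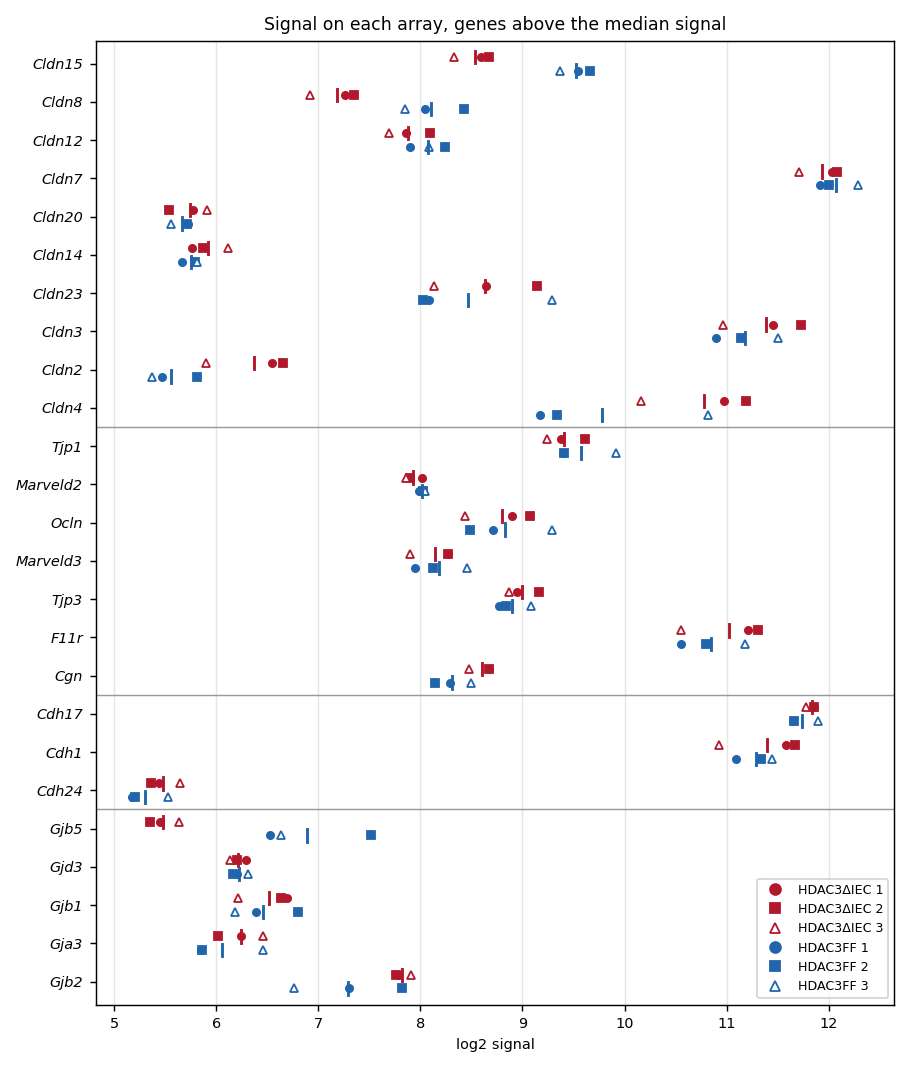
The horizontal axis gives the log2 signal and each row is 1 of the 25 genes above the median signal, by family and, within a family, by fold change, with HDAC3ΔIEC (red) above HDAC3FF (blue), 1 symbol per array and a bar at the group mean. For Cldn15, Cldn8 and Gjb5 every HDAC3ΔIEC point lies left of every HDAC3FF point, and for Cldn2 every one lies right of them.

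Among the claudins, Cldn15 was lower in HDAC3ΔIEC, with Cldn8 and Cldn2 showing separated groups that did not pass over all genes. Cldn15, the cation pore of gut epithelium, read 8.59, 8.67 and 8.33 on the HDAC3ΔIEC arrays, against 9.54, 9.66 and 9.37 on the HDAC3FF arrays. The lowest control array stood 0.70 above the highest HDAC3ΔIEC array. The group means were 8.53 ± 0.18 in HDAC3ΔIEC and 9.52 ± 0.15 in HDAC3FF (SD, n = 3 each), and Cldn15 fell to 50.3% of the control level. Its log2 fold change of -0.99 ± 0.12 (SE; 95% interval -1.28 to -0.70) passed over all genes with limma and Benjamini-Hochberg adjustment (adjusted p = 0.0276). It was the 1 gene of the 76 called at an adjusted p under 0.05 (1.32%), where 0.701% of all genes were called in either direction and 0.333% were called lower. The call was lost without any 1 of HDAC3ΔIEC arrays 1, 2 and 3 or HDAC3FF arrays 1 and 2 (limma adjusted p from 0.0731 to 0.122), and was kept without HDAC3FF array 3 (0.0140), the log2 fold change running from -1.07 to -0.89. Ordinary statistics without limma's moderation ended the call as well (adjusted p = 0.273). In these cell populations a lower share of cells that express a gene and less of its RNA in each cell cannot be told apart.

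Cldn8, a sealing claudin of the distal colon, read 7.26, 7.35 and 6.92 in HDAC3ΔIEC, against 8.04, 8.43 and 7.85 in HDAC3FF. All 3 HDAC3ΔIEC arrays lay under all 3 controls. The log2 fold change was -0.93 ± 0.17 (SE; 95% interval -1.34 to -0.52), or 52.5% of the control level, with a limma adjusted p = 0.0793. Without HDAC3FF array 3 it was -1.06 and passed (limma adjusted p = 0.0318; with any other array left out it was between 0.162 and 0.240).

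Cldn2, the cation and water pore of leaky epithelia, read 6.54, 6.65 and 5.90 in HDAC3ΔIEC, against 5.47, 5.81 and 5.37 in HDAC3FF. The groups did not overlap, although HDAC3ΔIEC array 3 came within 0.09 of HDAC3FF array 2. The log2 fold change of 0.81 ± 0.21 (SE; 95% interval 0.32 to 1.31), a ratio of 1.76, did not pass (limma adjusted p = 0.175). The pore-forming Cldn15 and Cldn2 thus had separated groups on opposite sides, of which Cldn15 alone passed.

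Cldn4, a sealing claudin, read 10.98, 11.19 and 10.16 in HDAC3ΔIEC, against 9.17, 9.34 and 10.82 in HDAC3FF. HDAC3FF array 3 lay inside the HDAC3ΔIEC range, and the other 2 control arrays lay below all of it. With all arrays the log2 fold change was 1.0 ± 0.46 (SE; 95% interval -0.08 to 2.08; limma adjusted p = 0.488). Without HDAC3FF array 3 it was 1.52 and passed (limma adjusted p = 0.0487; with any other array left out it was between 0.420 and 0.810), in a fit that called 2.2% of all genes.

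Cldn7, which mice need for an intact intestinal lining, and Cldn3, a barrier claudin, had overlapping groups. Cldn7 read 12.03, 12.08 and 11.71 in HDAC3ΔIEC, against 11.92, 12.00 and 12.29 in HDAC3FF, with a log2 fold change of -0.13 ± 0.14 (SE; 95% interval -0.46 to 0.20). Cldn3 read 11.46, 11.73 and 10.97 in HDAC3ΔIEC, against 10.90, 11.14 and 11.50 in HDAC3FF, with 0.21 ± 0.22 (95% interval -0.31 to 0.73). These intervals leave out a doubling or a halving of either gene. Cldn23 had the widest interval of the family after Cldn4, -0.73 to 1.07, around a log2 fold change of 0.17 ± 0.38. Cldn23 read 8.64, 9.14 and 8.13 in HDAC3ΔIEC, against 8.08, 8.02 and 9.29 in HDAC3FF, where array 3 was the highest of all 6. Without HDAC3FF array 3 the log2 fold change of Cldn23 was 0.58 (limma adjusted p = 0.362) and that of Cldn3 was 0.37 (0.506). Cldn12, described in gut epithelium as a claudin of calcium permeability, had -0.19 ± 0.13, and Cldn14 and Cldn20 had 0.16 ± 0.11 and 0.08 ± 0.12.

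Of the 18 claudins at or below the median signal none passed, with limma's unadjusted p under 0.05 for 0 of them, and their log2 fold changes ran from -0.16 for Cldn17, an anion pore of the kidney, to 0.22 for Cldn34b3. Cldn10, whose isoforms form cation or anion pores, was the single one with separated groups, at 3.85, 3.87 and 3.80 in HDAC3ΔIEC, against 3.65, 3.65 and 3.73 in HDAC3FF (0.17 ± 0.08, SE; limma adjusted p = 0.497). Cldn24 had -0.15 ± 0.09. Claudins known from other tissues were among the dim ones, namely Cldn1 of skin, Cldn5 of endothelium, Cldn11 of myelin and testis, Cldn16 and Cldn19 of the kidney, and Cldn18 of stomach and lung, with values between -0.06 and 0.10. The median log2 fold change of the 28 claudins was 0.00, against 0.01 over all genes, and 14 were positive and 14 negative.

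Cldn15 and Gjb5, separated on the lower side, and Cldn2, separated on the higher side, are shown with the 250 bases before their start. The windows are from RefSeq on GRCm38.p6, so that the lower and the higher side can be read beside each other. The gap between the groups was 0.09 for Cldn2, and Cldn4, with a larger difference but overlapping groups, is not shown. Promoter sequences were found by symbol for 53 of the 76 genes, Cldn8 not among them. Capitals mark any of 4 motifs searched on both strands: AGGTCA, the half-site of many nuclear receptors; TTTATG and TTTATT, which resemble sites of the intestinal CDX factors and share their first 5 letters; and TATAAA, the TATA box.
Cldn15 (chr5:136967619-136967868, plus strand): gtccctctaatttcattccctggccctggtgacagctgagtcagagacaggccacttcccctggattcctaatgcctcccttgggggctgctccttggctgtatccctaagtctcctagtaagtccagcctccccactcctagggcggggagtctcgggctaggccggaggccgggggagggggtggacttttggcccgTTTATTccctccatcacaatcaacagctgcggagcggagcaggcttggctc
Gjb5 (chr4:127358165-127358414, minus strand): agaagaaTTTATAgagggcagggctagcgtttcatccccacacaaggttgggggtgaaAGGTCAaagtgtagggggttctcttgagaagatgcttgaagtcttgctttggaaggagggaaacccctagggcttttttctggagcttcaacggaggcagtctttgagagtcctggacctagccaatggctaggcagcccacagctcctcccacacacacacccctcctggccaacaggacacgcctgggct
Cldn2 (chrX:139800558-139800807, plus strand): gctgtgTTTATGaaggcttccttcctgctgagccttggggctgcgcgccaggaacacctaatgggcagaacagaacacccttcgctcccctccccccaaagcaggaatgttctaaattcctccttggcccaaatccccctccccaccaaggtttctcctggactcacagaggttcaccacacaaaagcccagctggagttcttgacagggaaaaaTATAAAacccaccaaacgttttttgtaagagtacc

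In these windows Cldn15 had TTTATT at 51 to 46 bases before the start. Gjb5 had AGGTCA at 192 to 187 bases before it and TATAAA on the reverse strand at 243 to 238. Cldn2 had TTTATG at 244 to 239 bases and TATAAA at 35 to 30 bases before its start. Across all 32851 RefSeq windows of the same length, either strand counted, AGGTCA occurred in 14% of windows, TTTATG in 10.8%, TTTATT in 18.1% and TATAAA in 12.4%. In the 70 windows of the 53 genes, AGGTCA occurred in 17.1%, TTTATG in 5.71%, TTTATT in 17.1% and TATAAA in 10%. The 2 genes shown from the lower side, Cldn15 and Gjb5, had no motif of the 4 in common. The TTTATA marked in Gjb5, which is TATAAA on the reverse strand, differs from the TTTATT of Cldn15 in its last letter only.

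Zonula occludens proteins and cingulin tie the claudin strands to actin, and the MARVEL proteins and JAMs are their membrane partners. None of the 9 genes of this group passed or had separated groups, 1 had an unadjusted limma p under 0.05, and their log2 fold changes lay between -0.17 and 0.30. Cgn, the gene of cingulin, had the highest value and read 8.67, 8.67 and 8.48 in HDAC3ΔIEC, against 8.29, 8.14 and 8.50 in HDAC3FF. Its log2 fold change was 0.30 ± 0.12 (SE; 95% interval 0.03 to 0.57; limma adjusted p = 0.399). The highest control array exceeded the lowest HDAC3ΔIEC array by 0.02.

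Tjp1, which encodes ZO-1, read 9.38, 9.61 and 9.24 in HDAC3ΔIEC, against 9.40, 9.41 and 9.92 in HDAC3FF (-0.17 ± 0.17, SE). Without HDAC3FF array 3 that difference was 0.01. Tjp3, its relative ZO-3, had 0.10 ± 0.12, and F11r, which encodes the adhesion molecule JAM-A, had 0.18 ± 0.23. With HDAC3FF array 3 left out, F11r had 0.35, Ocln 0.20 and Marveld3 0.11. Ocln, the gene of occludin, had -0.03 ± 0.24 with a 95% interval from -0.58 to 0.53, so differences within those bounds are not excluded. Marveld2, which encodes tricellulin of the corners between 3 cells, had the narrowest interval of the 7 brighter genes, -0.28 to 0.10. Marveld3 had -0.03 ± 0.16, and the dim Jam2 and Jam3, junctional adhesion molecules, had 0.03 and 0.08.

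None of the 23 cadherins passed, none had separated groups, and their log2 fold changes ran from -0.10 for Cdh11 to 0.19 for Cdh15, with none at an unadjusted limma p under 0.05. Cdh1, the gene of E-cadherin and the main cadherin of epithelial adherens junctions, read 11.58, 11.67 and 10.93 in HDAC3ΔIEC, against 11.09, 11.34 and 11.45 in HDAC3FF. The difference was 0.10 ± 0.20 (SE; 95% interval -0.38 to 0.58). Cdh17, the liver-intestine cadherin, read 11.86, 11.86 and 11.78 in HDAC3ΔIEC, against 11.65, 11.66 and 11.90 in HDAC3FF, a difference of 0.09 ± 0.10 (95% interval -0.13 to 0.32). Groups overlapped for both genes.

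Of the other 21 cadherins, Cdh24 read just above the median signal of all genes (0.18 ± 0.13, SE) and 20 lay at or below it. Among these were cadherins known from other cell types: Cdh5 of endothelium (-0.00 ± 0.11), Cdh2 of neurons and muscle (0.06 ± 0.08), Cdh11 of mesenchyme (-0.10 ± 0.12), Cdh15 of muscle (0.19 ± 0.11) and Cdh16 of kidney (0.03 ± 0.13). Cdh18 has a second, dimmer probe set with the opposite sign, at 0.11 ± 0.08 against -0.08 ± 0.08 on the one used, and both intervals include 0. The median over the cadherins was 0.05.

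Among the connexins Gjb5 had the largest difference of all 76 genes in size. It encodes a connexin best known from skin and placenta. Gjb5 read 5.45, 5.35 and 5.63 in HDAC3ΔIEC, against 6.52, 7.51 and 6.63 in HDAC3FF. The groups did not overlap, and the controls spread over 0.99, with array 2 the high one. The log2 fold change of -1.41 ± 0.25 (SE; 95% interval -2.00 to -0.82), or 37.6% of the control level, had a limma adjusted p = 0.0693. Without HDAC3FF array 2 it was -1.10 (limma adjusted p = 0.0377) and without HDAC3FF array 3 it was -1.54 (0.0402), so it passed in both; with any other array left out the adjusted p was between 0.140 and 0.270.

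Gjb2, a connexin of skin, inner ear and gut epithelium, read 7.78, 7.76 and 7.91 in HDAC3ΔIEC, against 7.30, 7.82 and 6.76 in HDAC3FF. HDAC3FF array 2 lay within the HDAC3ΔIEC range, and the other 2 controls lay under it. The log2 fold change was 0.53 ± 0.24 (SE; 95% interval -0.04 to 1.09; limma adjusted p = 0.484). Without HDAC3FF array 3 it was 0.26, and without HDAC3FF array 2 it was 0.79, neither of which passed (limma adjusted p = 0.527 and 0.179). Gjb1, a connexin of liver and Schwann cells, Gjd3 and Gja3, a lens connexin, had 0.06 ± 0.19, -0.02 ± 0.09 and 0.18 ± 0.19, and the groups overlapped for each. Gja3 had 0.38 without HDAC3FF array 3 (limma adjusted p = 0.262). The other 11 connexins were dim, from -0.11 to 0.11, among them Gja1, the most widely expressed connexin, at 0.01 ± 0.11 and the vascular Gja4 and Gja5. The 16 connexins had a median of 0.00, with 8 positive and 8 negative.

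**Figure D2:**
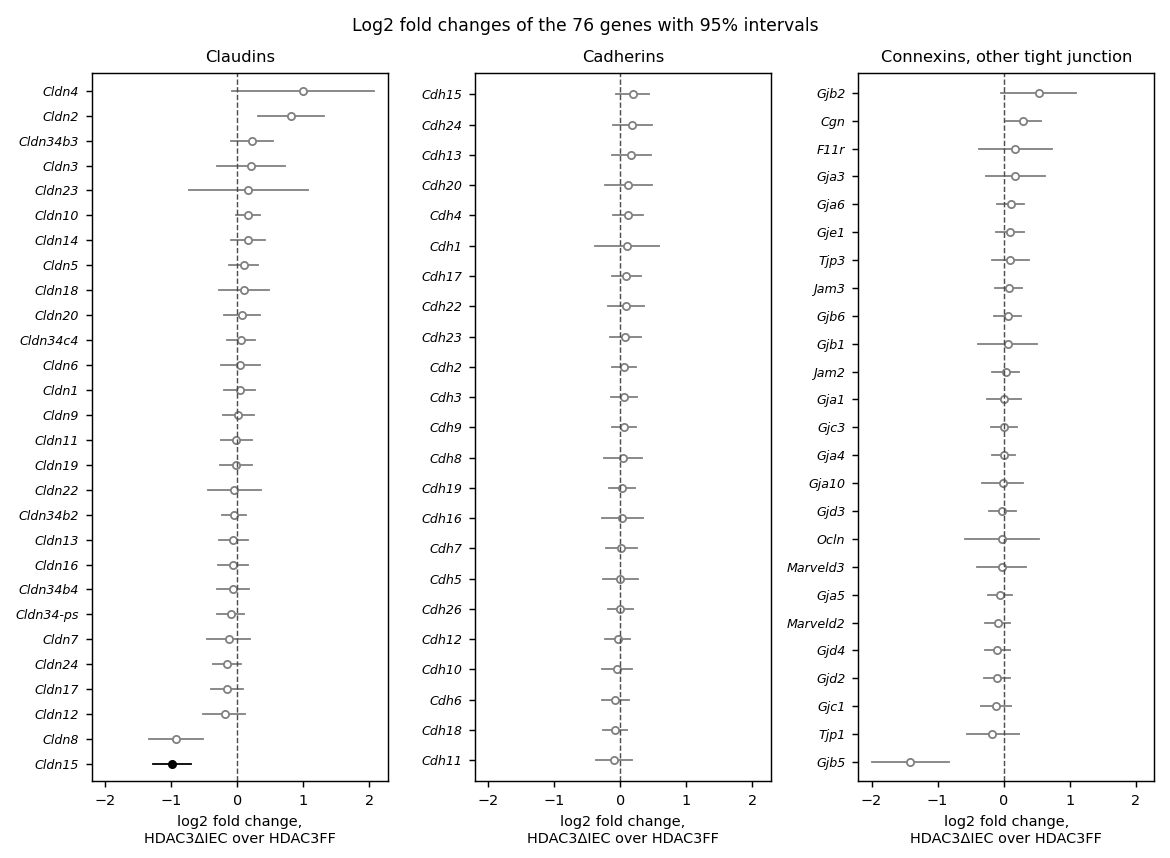
The horizontal axis gives the log2 fold change of HDAC3ΔIEC over HDAC3FF for each of the 76 genes, with 95% intervals, ordered by value within 3 panels. The filled black point is Cldn15, the gene with a limma adjusted p under 0.05, and 70 of the 76 points lie within 0.5 of 0.

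Counted together, 5 of the 76 genes had an unadjusted p under 0.05 (6.58%), against 11.2% of all genes. Groups did not overlap for 2 genes on the higher side (2.63%), against 8.45% of all genes, and for 3 on the lower side (3.95%), against 7.7%. Among the 25 brighter members 16% had separated groups, against 19.8% of all genes above the median signal. On the higher side this was 4% against 9.18%, and on the lower side 12% against 10.6%. An unadjusted limma p under 0.05 was found for 20% of the brighter members, against 17.7% of all genes above the median signal. Over all 76 genes the shares of separated genes were thus under those of genes in general, while among brighter genes the shares lay on both sides. The share called rests on 1 gene, which is 4% of the brighter members, against 1.26% of all genes above the median signal. The median log2 fold change of the 76 was 0.03, against 0.01 over all genes, with 44 positive and 32 negative, and 6 exceeded 0.5 in size: Gjb5, Cldn15, Cldn8, Cldn4, Cldn2 and Gjb2. For 3 against 3 arrays the exact two-sided permutation test of a single gene cannot give less than p = 0.1, which Cldn15, Cldn8, Cldn2, Cldn10 and Gjb5 reached.

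Many of the 76 genes lie beside another of them: 16 pairs are neighbours among protein-coding genes in the RefSeq table. Cldn4 and Cldn3 had log2 fold changes of 1.0 and 0.21, Cldn8 and Cldn17 had -0.93 and -0.16, and Gjb2 had 0.53 between Gja3 at 0.18 and Gjb6 at 0.06. In no pair did both members have separated groups.

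Arrays of 1 group also differed from each other, and in several genes they did so in the same way. On HDAC3FF array 3 Cldn4 read 1.57 and Cldn23 1.24 above the mean of the other 2 controls, and Ocln, Gja3, Tjp1 and F11r read 0.69, 0.60, 0.52 and 0.50 above it. Gjb2 deviated the other way on that array, by -0.80. On HDAC3ΔIEC array 3 Cldn4, Cldn23, F11r, Cdh1, Cldn2, Cldn3 and Ocln read between 0.54 and 0.93 below the mean of the other 2. Of the 25 brighter genes, 15 read above the mean of the other 2 arrays of the group on HDAC3FF array 3 and below that mean on HDAC3ΔIEC array 3 (60%), against 31.4% of all genes above the median signal. Of those 15, 5 genes (Cldn4, Cldn3, Cldn23, F11r and Ocln) deviated by over 0.4 on both arrays. Cldn15, Cldn8 and Cldn2 did not share this pattern: all 3 were below the others of their group on both arrays numbered 3.

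Among the epithelial markers Krt20, Krt18 and Vil1 were high on HDAC3FF array 3 too, Vil1 by 0.44 over the mean of the other controls. Epcam, Lgals4 and Krt8 stood 0.22, 0.15 and 0.09 over it. Krt19, Cdx2, Car1 and Cdx1 deviated from it by -0.16, -0.12, -0.05 and -0.04, and Krt19 read 11.92 there, its lowest control value. Krt20, a marker of differentiated surface cells, read 12.23, 12.31 and 12.25 in HDAC3ΔIEC, against 11.79, 11.55 and 12.22 in HDAC3FF. Krt18, a keratin of simple epithelia, was likewise high on HDAC3FF array 3, by 0.56 over the mean of the other controls. On HDAC3ΔIEC array 3 Krt18, Vil1 and Krt20 deviated from the mean of the other 2 by -0.19, -0.06 and -0.01. Lgals4, Epcam, Cdx2 and Krt19 deviated there by -0.30, -0.16, -0.16 and -0.11, and Krt8, Car1 and Cdx1 by 0.07, 0.08 and 0.04. The part of these markers in the claudin values was not tested. Without both arrays numbered 3, a choice made after the values were seen, limma called 3.81% of all genes and 5 of the 76: Cldn15, Cldn8 and Gjb5 lower, and Cldn4 (1.83) and Cldn2 (0.95) higher.

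**Figure D3:**
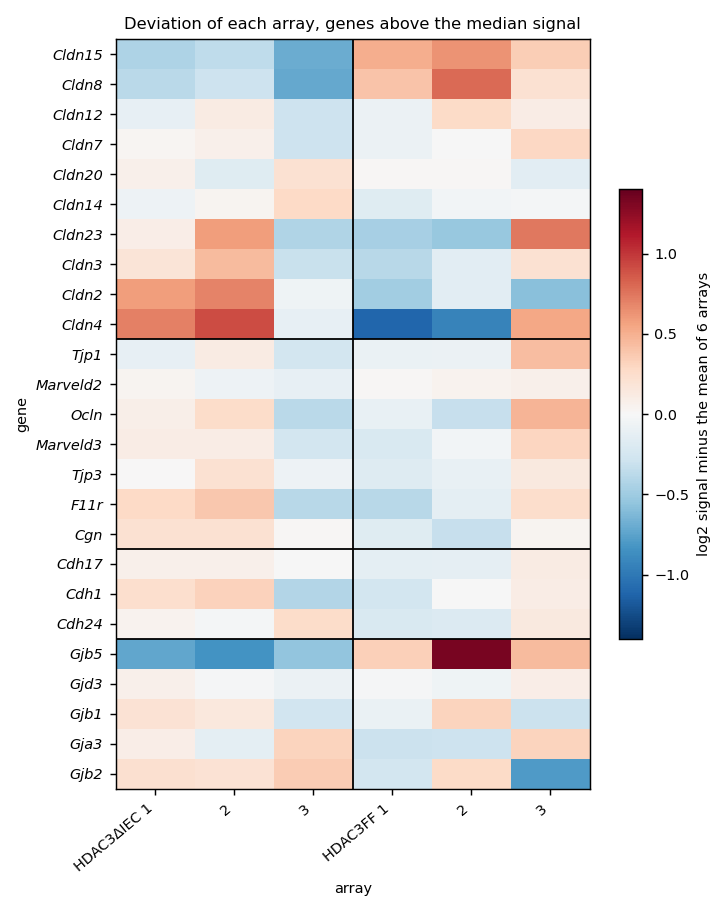
Colour gives the log2 signal minus the mean of the 6 arrays for each of the 25 brighter genes (rows, in families) on each array (columns), red above and blue below. Cldn15, Cldn8 and Gjb5 change colour at the line between the groups, while Cldn4, Cldn23, Ocln and F11r are red on HDAC3FF array 3 and blue or pale on HDAC3ΔIEC array 3.

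The cytoplasmic and membrane partners of these proteins were read from lists of 35 tight junction, 20 adherens junction and 17 desmosome genes and the 3 pannexins. Of the first 3 lists 31, 15 and 15 genes were measured, and the values below are theirs. No gene of these lists passed with limma. An unadjusted p under 0.05 was found for 7 of the 31 tight junction partners (22.6%), for none of the 15 adherens junction genes, for 1 of the 15 desmosome genes (6.67%) and for 1 of the 3 pannexins, against 11.2% of all genes. Of the 31 tight junction partners 20 read above the median signal, and of all genes above it the share was 17.7%. The tight junction partners had a median log2 fold change of 0.02, with 21 positive and 10 negative, and groups were separated on the higher side for 1 (3.23%, against 8.45% of all genes) and on the lower side for 3 (9.68%, against 7.7%). Cgnl1, the paracingulin gene, which was dim, read 4.97, 5.02 and 5.02 in HDAC3ΔIEC, against 5.41, 5.64 and 5.29 in HDAC3FF (-0.45 ± 0.11, SE; limma adjusted p = 0.135), the opposite sign to its relative Cgn. Ildr1, of the angulin family at tricellular corners, read 9.77, 9.88 and 9.90 in HDAC3ΔIEC, against 9.35, 9.63 and 9.32 in HDAC3FF (0.42 ± 0.11; limma adjusted p = 0.166). The atypical protein kinase C genes Prkci and Prkcz, which act in apical polarity, had -0.35 ± 0.09 and -0.38 ± 0.10 with separated groups (limma adjusted p = 0.168 and 0.171). Pard6b, their polarity partner, had 0.63 ± 0.25 and read 7.86 on HDAC3FF array 3, against 6.86 and 7.02 on the other controls.

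The catenins, which link cadherins to actin, showed small differences: Ctnnb1 0.22 ± 0.15 (SE), Ctnnd1 0.21 ± 0.13, Jup 0.20 ± 0.20 and Ctnna1 0.01 ± 0.12. In that list the smallest p were those of Vcl, the vinculin gene (-0.42 ± 0.19; limma adjusted p = 0.488), and Ctnnd1 (0.634). In the desmosome list Pkp4, a plakophilin, read 8.16, 8.44 and 8.48 in HDAC3ΔIEC, against 7.87, 7.91 and 8.02 in HDAC3FF (0.43 ± 0.11; limma adjusted p = 0.169). The desmosomal cadherin Dsg2 had 0.31 ± 0.14 (limma adjusted p = 0.465), whereas Dsc2 and the plaque gene Dsp had -0.01 each. The median log2 fold change was 0.03 for the adherens junction list and 0.08 for the desmosome list.

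Panx1, a channel protein that releases ATP and resembles connexins in topology, read 7.42, 7.45 and 7.55 in HDAC3ΔIEC, against 7.98, 8.07 and 8.33 in HDAC3FF. All 3 HDAC3ΔIEC values lay under the controls. The log2 fold change of -0.65 ± 0.11 (SE; 95% interval -0.91 to -0.39) had a limma adjusted p = 0.0621. Panx2 and Panx3 had 0.05 ± 0.08 and 0.08 ± 0.09.

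**Figure D4:**
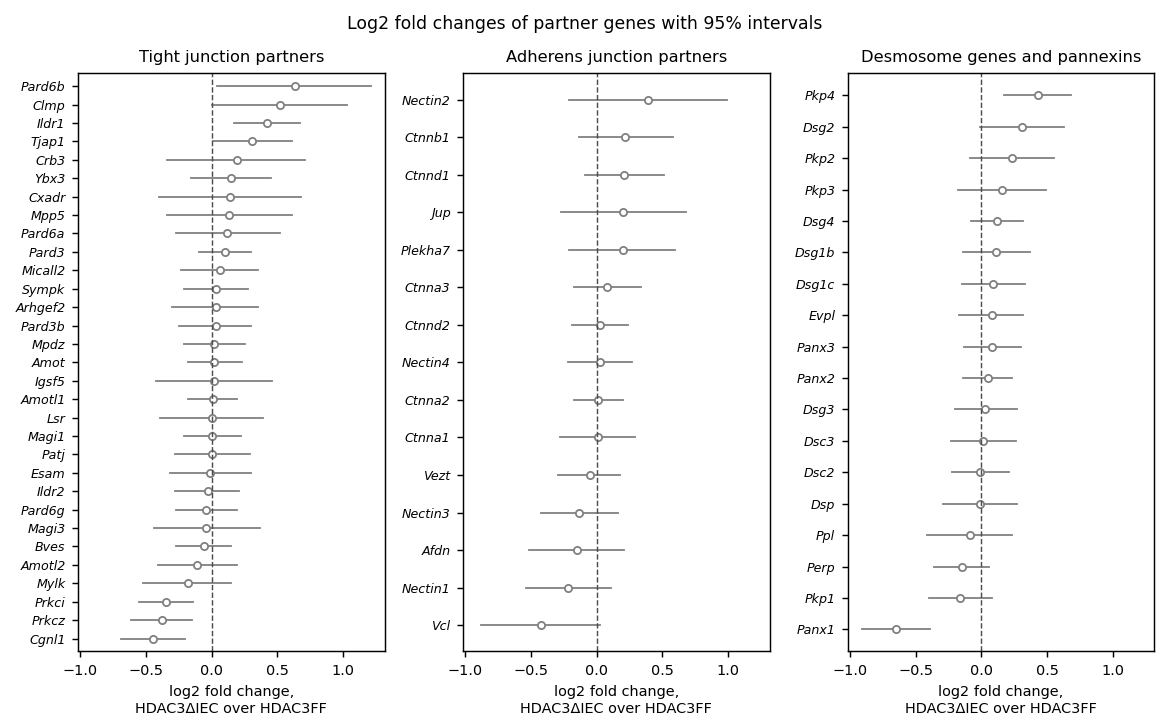
The horizontal axis gives the log2 fold change of HDAC3ΔIEC over HDAC3FF with 95% intervals for partner genes of the tight junction, the adherens junction and the desmosome, the last panel with the 3 pannexins. All points are open, since none had a limma adjusted p under 0.05, and the lowest point is Panx1 at -0.65.

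Levels of other cell types' markers were set beside these values by a sum for each list on an array. Log2 signals were first turned back to linear signals, and the log2 of their sum is given. The brightest genes therefore weigh most in it. The 10 endothelial genes summed to 7.94 to 8.03 in HDAC3ΔIEC and 7.83 to 8.0 in HDAC3FF, and the 10 fibroblast and muscle genes to 8.14 to 8.24 in HDAC3ΔIEC and 8.14 to 8.38 in HDAC3FF. The 9 myeloid genes summed to 7.73 to 7.94 in HDAC3ΔIEC and 8.11 to 8.27 in HDAC3FF. C1qa was the 1 called gene among them (-1.71 ± 0.19, SE, limma adjusted p = 0.0204), with means of 5.13 in HDAC3ΔIEC and 6.84 in HDAC3FF. Its partners C1qb and C1qc had 0.07 and -0.11. Cd68 had separated groups on the higher side (0.51 ± 0.13, SE, limma adjusted p = 0.174). Of the 9 genes 4 were positive and 5 negative, with a median log2 fold change of -0.03. The 5 neuron and glia genes summed to 7.49 to 7.67 in HDAC3ΔIEC and 7.17 to 7.45 in HDAC3FF, led by Ret at 0.60 ± 0.13 (limma adjusted p = 0.106). T and NK cell genes summed to 7.50 to 7.65 in HDAC3ΔIEC and 7.60 to 7.77 in HDAC3FF, and B and plasma cell genes to 5.84 to 5.98 in HDAC3ΔIEC and 5.91 to 6.03 in HDAC3FF. The 10 epithelial genes summed to 15.34 to 15.43 in HDAC3ΔIEC and 15.10 to 15.27 in HDAC3FF. Groups were separated on the higher side for 5 of them (50%, against 9.18% of all genes above the median signal), and on the lower side for 0. An unadjusted limma p under 0.05 was found for 4 (40%, against 17.7%): Krt18 (0.53), Krt20 (0.41), Krt19 (0.30) and Krt8 (0.26). None of the 10 passed, and 7 were positive and 3 negative. The part of these differences between list sums in the junction gene values was not tested.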

How the data were processed

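Per the labels' protocols, Trizol was used for total RNA, which was labelled with biotin for Affymetrix arrays. The authors deposited log2 signals, 1 per probe set and array; the submitters' processing notes list Affymetrix Power Tools without a version, and none of the sources used here states the background correction or normalization. Array medians lay between 5.30 and 5.35.

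Of 24939 probe sets, 21105 name 1 gene in the platform annotation, 1254 several and 2580 none; the first were used. Symbols were checked through the Entrez number against RefSeq (GRCm38.p6), which matched all 76 members. Each of 19533 genes is represented by its probe set of highest mean signal. HDAC3ΔIEC was compared with HDAC3FF with limma 3.58.1 in R 4.3.3 (lmFit, eBayes, two-sided, no covariate), with Benjamini-Hochberg adjustment over all genes; SE and 95% intervals are limma's. The number of arrays limits the precision.

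Members and lists were chosen with earlier results of these data known. Named members are those called, the 14 with the smallest p, the 3 brightest and the largest rise and fall of each family, and members whose probe sets disagree in sign; for partner lists, the 2 with the smallest p. Cldn14, Cldn20, Cldn23, Ocln, Marveld2, Marveld3, Gja3, Prkci, Prkcz, Pard6b, Krt20 and other genes named beyond this were chosen after their values were seen. Alternatives changed the normalization, the moderation, the array weights, the filter on dim genes, the probe set rule, the threshold and the arrays included. Figures were drawn with matplotlib 3.10.9 under Python 3.11.15.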

Additional observations from a re-analysis of the deposited data

How the results depend on the processing

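Of the 76 genes, 1 was called, and 137 of all genes. The number of members called was 0 with a replicate block and with ordinary unmoderated statistics (limma fits; 4 and 5 members had an unadjusted p under 0.05), 2 with an intensity trend or among genes above the 25th percentile of signal (Cldn15 and Gjb5), 3 with array weights, among genes above the median or at an adjusted p under 0.10 (Cldn15, Cldn8 and Gjb5), and 5 without both arrays numbered 3; it ran from 0 to 4 with 1 array left out (0 without HDAC3ΔIEC array 1, 2 or 3 or HDAC3FF array 1, where 4 to 7 members had an unadjusted p under 0.05). The number of all genes called was 12 with the replicate block, 0 with ordinary statistics (1858 had an unadjusted p under 0.05), 90 with adjustment over all probe sets, 321 at an adjusted p under 0.10, 357 with array weights and 744 without both arrays numbered 3; it ran from 13 to 430 with 1 array left out. With the intensity trend 178 genes were called, and with the filters at the 25th percentile and the median, which test fewer genes, 174 and 190. Quantile normalization, centring on array medians, a robust prior, the mean of all probe sets and adjustment over all probe sets each left 1 member called, Cldn15. The replicate block left Cldn15 at -0.99 (limma adjusted p = 0.0779). The labels link arrays across the groups by a number only and do not say whether they were paired. With 3 arrays per group, the correlations of deviations between arrays of the same number (-0.024, -0.065 and -0.198) cannot decide this.

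Signs changed among uncalled genes: Cdh18 was 0.02 with the mean of all probe sets and Gjd3 0.02 with array weights, and without both arrays numbered 3 Cldn7 was 0.09, Gjd3 0.07 and Tjp1 0.09. With 1 array left out, Cdh1 ran from -0.04 to 0.33, Cdh11 from -0.19 to 0.01, Gjb1 from -0.08 to 0.23, Gjd3 from -0.06 to 0.03 and Tjp1 from -0.27 to 0.01. Of 463 values of 25 named members under the alternatives, 427 kept their sign and side of the threshold, most of them for genes that were not called. Of the rest, 7 lost a call, all for Cldn15, the 1 called gene, while 16 gained a call and 13 changed sign. The cause was not tested, apart from fewer arrays or fewer genes in the settings built that way. The members' median log2 fold change lay between 0.00 and 0.09 throughout.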
